A study of Mus musculus with 6 samples.

Results

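The RNA levels of 9 genes of class I phosphoinositide 3-kinase (PI3K) signalling were followed: the catalytic subunits Pik3cg (p110 gamma), Pik3cd (p110 delta), Pik3ca (p110 alpha) and Pik3cb (p110 beta), the regulatory subunits Pik3r5 (p101), Pik3r6 (p84) and Pik3r1 (p85 alpha), the adaptor Pik3ap1 (BCAP) and the lipid phosphatase Inpp5d (SHIP1). They were taken by gene name, and all 9 were found once among the 26554 features of each library and passed the filter on low counts that left 17240 features. The RNA came from the VPL/VPM (the ventral posterolateral and posteromedial nuclei), where the thalamus relays touch and pain signals to cortex, of wild-type C57 mice. In 3 libraries the right VPL/VPM had received collagenase IV (0.01 U in 10 nL), which digests the collagen of vessel walls and so causes a small haemorrhage, and in 3 libraries it had received 10 nL of saline. Tissue was taken on day 14. The series uses the collagenase injection as a model of central post-stroke pain, and its title names PIK3CG. Whether each library holds tissue of 1 mouse or of several pooled mice is not in the labels, and the p-values below measure the spread between these libraries only.

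Class I PI3K phosphorylates a membrane lipid to make PIP3, which recruits kinases and exchange factors such as AKT, BTK and VAV to the membrane. The p110 alpha, beta and delta subunits bind SH2-domain regulators of the p85 family and work below receptors that signal through tyrosine phosphorylation, whereas p110 gamma binds p101 or p84 and works below G protein-coupled receptors such as those for chemoattractants. P110 gamma and p110 delta are best known from leukocytes, and p110 alpha and beta occur in most cells. SHIP1, found mainly in blood-derived cells and microglia, removes the 5-phosphate of PIP3, and BCAP is a leukocyte adaptor that brings p85 to receptors.

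At 14 days Pik3cg, its partner Pik3r5 and the phosphatase Inpp5d rose after collagenase, by 3.23-fold, 3.11-fold and 2.59-fold. The ubiquitous subunits Pik3ca, Pik3cb and Pik3r1 did not pass the test, and their 95% intervals stayed between 0.755-fold and 1.28-fold. Pik3cd, usually grouped with Pik3cg as a leukocyte isoform, had, per length in FPKM, the highest level of the 4 catalytic subunits in both groups and did not pass the test. Of the 9 genes 3 rose and 0 fell, all 3 among the 6 grouped as leukocyte genes, where a call is an edgeR quasi-likelihood p below 0.05 after Benjamini-Hochberg adjustment. Without adjustment 4 of the 9 had a p below 0.05, and none of these was lower; DESeq2 called the same 3. Over all 17240 tested features 2.41% were called by the same edgeR rule, 2.12% higher and 0.290% lower, and DESeq2 called 3.09% of its 19648 features higher. The count of 3 became 0 without saline replicate 1, 1 without collagenase replicate 1 or 2, and 2 without collagenase replicate 3. The median log2 fold change was 1.24 for the 6 leukocyte genes, -0.05 for the 3 ubiquitous genes and -0.02 over all tested features.

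**Figure D1:**
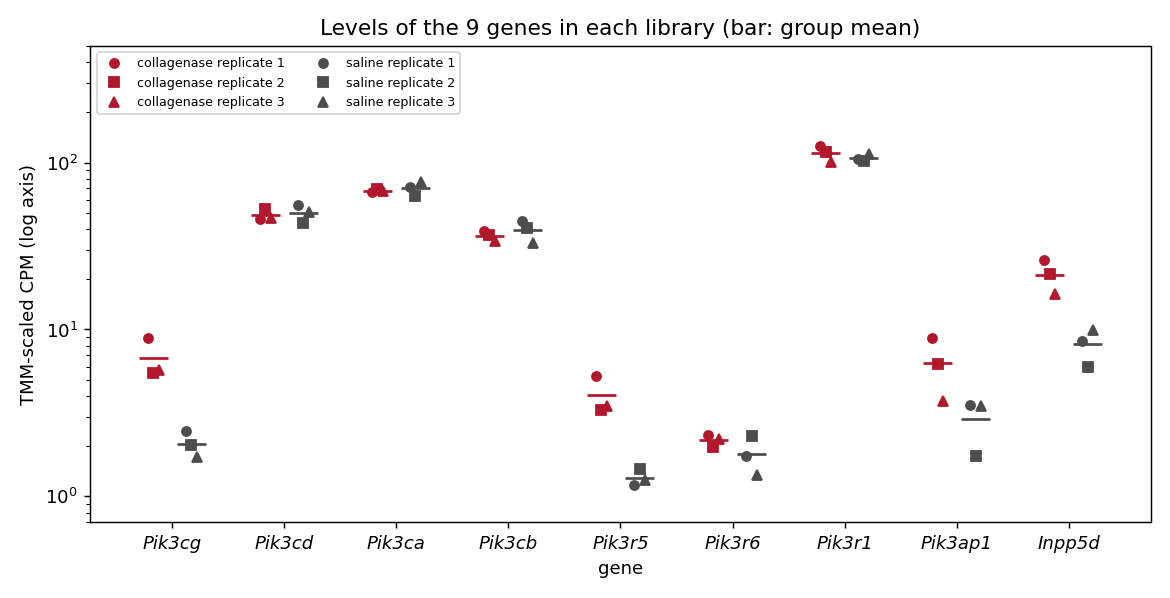
Each point is 1 library, with its TMM-scaled CPM (counts scaled for library depth) on a log axis for the 9 genes; red symbols are collagenase libraries and grey symbols saline libraries, and bars are group means. Pik3cg, Pik3r5, Pik3ap1 and Inpp5d have all collagenase points above all saline points, while the points of the other 5 genes overlap.

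The libraries held 36463551 to 44815451 counts after collagenase and 33603076 to 44363142 after saline. Markers fixed for the check of the tissue showed relay neurons in every library, with a summed level of 2803 to 3258 CPM after collagenase and 2866 to 4182 CPM after saline over 10 genes such as Slc17a6 and Tcf7l2. Leukocyte markers were higher after collagenase: 8 of 10 pan-leukocyte genes rose, and their summed level was 349.2, 287.1 and 260.9 CPM in collagenase replicates 1, 2 and 3, against 122.4, 128.6 and 138.9 CPM in saline replicates 1, 2 and 3. Of 10 microglial markers 4 rose, with sums of 504.4 to 686.6 CPM after collagenase against 318.2 to 338.6 CPM after saline, and of 9 monocyte and border macrophage markers 2 rose, with sums of 202.8 to 478.8 CPM after collagenase against 18.4 to 24.5 CPM after saline. Lyz2, a lysozyme of myeloid cells, made up most of that last difference: without it the other 8 markers summed to 19.5 to 31.4 CPM after collagenase and 10.3 to 14.0 CPM after saline. Ccr2, the other of the 2 that rose, passed the filter on low counts only through the collagenase libraries. In bulk tissue fewer or more cells of a type and less or more RNA per cell cannot be told apart.

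Markers of other leukocytes had low summed levels. Of 5 tested neutrophil markers 2 rose, with sums over the 10 listed genes of 25.3 to 30.0 CPM after collagenase and 6.62 to 8.68 CPM after saline. Csf3r, the G-CSF receptor, carried most of these sums, at 22.1 ± 3.40 CPM after collagenase and 5.88 ± 1.43 CPM after saline (SD, n = 3 each; edgeR adjusted p 0.0037), and the collagenase Mmp8 also rose, at 0.476 ± 0.122 CPM after collagenase and 0 counts after saline. Without Csf3r the other 9 genes summed to only 3.41 to 6.84 CPM after collagenase and 1.17 to 2.01 CPM after saline. Mmp8 passed the filter on low counts only through the collagenase libraries, and its call ended in 4 of 6 fits with 1 library left out. The calprotectin genes S100a8 and S100a9 and the gelatinase Mmp9 had positive log2 differences of 2.14, 1.92 and 1.18 that did not pass (edgeR adjusted p 0.490, 0.406 and 0.112). The granule gene Camp had 0 counts in all 6 libraries, and Ly6g averaged 0.0259 CPM after collagenase and had 0 counts after saline. Of 7 tested T and NK cell markers 5 rose, with overlapping sums of 7.04 to 15.7 CPM after collagenase against 1.44 to 13.8 CPM after saline, and Cd3e, Cd3d, Cd3g, Cd8a and Nkg7 had 0 counts in saline. All 5 that rose, Cd3e, Cd3g, Cd8a, Nkg7 and Il2rb, passed the filter on low counts only through the collagenase libraries. Il2rb had 3, 4 and 6 counts in saline replicates 1, 2 and 3. The count of 5 thus rests wholly on genes that entered the test through the group where they were high. Their calls ended in 3, 2, 2, 4 and 1 of 6 fits with 1 library left out. The overlap came from Cd4 in saline replicate 3, at 13.1 CPM; without Cd4 the sums were 6.48 to 12.7 CPM after collagenase and 0.763 to 1.22 CPM after saline. Of 4 tested B cell markers 1 rose, with sums of 7.58 to 11.3 CPM after collagenase against 1.06 to 2.07 CPM after saline; without Jchain, the gene that rose, these were 2.02 to 2.69 CPM after collagenase and 0.653 to 1.16 CPM after saline. Markers of hippocampal and cortical neurons went the other way, with 1 of 8 called lower and sums of 343.9 to 371.4 CPM after collagenase against 530.2 to 631.1 CPM after saline. Slc17a7 carried most of these sums. Without it the other 7 summed to 98.7 to 125.8 CPM after collagenase and 140.9 to 168.0 CPM after saline, still with no overlap. Of 7 mural cell and fibroblast markers 3 rose (Col1a1, Col1a2 and Dcn, matrix genes), with sums of 380.2 to 404.4 CPM after collagenase against 258.9 to 304.6 CPM after saline. Of 7 astrocyte markers 2 rose, the intermediate filament gene Gfap by 1.78 and the water channel gene Aqp4 by 0.82 on the log2 scale, with sums of 3100 to 3827 CPM after collagenase against 2619 to 2901 CPM after saline. Without Gfap the other 6 markers summed to 2658 to 3051 CPM after collagenase and 2368 to 2767 CPM after saline, and the groups overlapped. What part these cell types have in the levels of the 9 genes was not tested.

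The promoter windows of the 3 genes that rose and of Pik3ca are shown because PU.1, the ETS factor encoded by Spi1 and needed for myeloid gene expression, binds purine-rich sites such as GAGGAAGT. The windows run from 250 bases before to 50 bases after an annotated start, 5′ to 3′ on the gene's strand, from RefSeq on GRCm38.p6. Capitals mark GAGGAAGT or its reverse complement ACTTCCTC, and CCGGAAG or its reverse complement CTTCCGG, an ETS site that holds a CpG.
Pik3cg: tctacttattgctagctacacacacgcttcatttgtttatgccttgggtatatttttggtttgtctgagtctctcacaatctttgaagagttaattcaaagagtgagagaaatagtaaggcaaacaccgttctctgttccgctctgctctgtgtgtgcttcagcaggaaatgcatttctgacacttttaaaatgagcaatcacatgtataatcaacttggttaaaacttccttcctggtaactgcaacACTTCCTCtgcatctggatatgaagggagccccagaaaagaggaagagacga
Inpp5d: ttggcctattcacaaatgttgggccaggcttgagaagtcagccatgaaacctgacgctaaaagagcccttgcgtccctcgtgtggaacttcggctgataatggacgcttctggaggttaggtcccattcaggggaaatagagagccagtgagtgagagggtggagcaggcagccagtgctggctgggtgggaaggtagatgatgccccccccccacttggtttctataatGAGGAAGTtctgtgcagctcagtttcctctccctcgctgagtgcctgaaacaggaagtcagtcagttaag
Pik3r5: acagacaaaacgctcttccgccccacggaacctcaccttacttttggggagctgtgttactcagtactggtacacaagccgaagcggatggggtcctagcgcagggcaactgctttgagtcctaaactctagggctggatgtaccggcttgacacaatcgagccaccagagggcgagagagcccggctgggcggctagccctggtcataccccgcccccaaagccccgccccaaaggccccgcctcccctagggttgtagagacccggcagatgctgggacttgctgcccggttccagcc
Pik3ca: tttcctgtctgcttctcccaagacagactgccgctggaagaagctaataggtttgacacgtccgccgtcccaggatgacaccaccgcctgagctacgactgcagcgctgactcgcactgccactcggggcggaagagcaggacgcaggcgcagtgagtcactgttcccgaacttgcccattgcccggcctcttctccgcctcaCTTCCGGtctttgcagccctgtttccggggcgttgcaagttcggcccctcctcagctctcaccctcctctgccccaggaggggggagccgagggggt
The windows are chr12:32208610-32208909 on the minus strand for Pik3cg, chr1:87620062-87620361 on the plus strand for Inpp5d, chr11:68431875-68432174 on the plus strand for Pik3r5 and chr3:32396815-32397114 on the plus strand for Pik3ca. RefSeq windows were matched by symbol for 8 of the 9 genes, 12 windows in all. GAGGAAGT, searched on both strands, began 2 bases before the start of Pik3cg and 20 bases before that of Inpp5d, and was in no window of the other 6 matched genes; a second, overlapping Pik3cg window holds the same site. Of 32851 RefSeq windows of this length 3.20% held it. CCGGAAG was in the Pik3ca window, 47 bases before the start, and in 8.86% of all windows. The printed window of Pik3cg held 4 CpG dinucleotides and its second window 5, and the window of Inpp5d held 6. The window of Pik3r5 held 16, that of Pik3ap1 26, that of Pik3ca 20 and that of Pik3cb 44. The 3 windows of Pik3cd held 6, 26 and 4 and the 2 windows of Pik3r1 held 34 and 6, against a median of 7 over all windows. Spi1 itself rose, to 9.59 ± 1.28 CPM after collagenase, against 3.51 ± 1.23 CPM after saline (SD, n = 3 each; edgeR adjusted p 0.0291), a call that ended in 5 of 6 fits with 1 library left out, and it also stands on the pan-leukocyte list. A match of letters is a description and not a bound site.

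Pik3cg (ENSMUSG00000020573, chromosome 12, 32173473 to 32208659, minus strand, GRCm38) had 424, 205 and 220 counts in collagenase replicates 1, 2 and 3, against 109, 70 and 59 counts in saline replicates 1, 2 and 3. Scaled for depth with TMM factors, as CPM, these were 8.91, 5.51 and 5.70 CPM after collagenase and 2.46, 2.04 and 1.73 CPM after saline. Collagenase replicate 1 stood highest, and the lowest collagenase library was above the highest saline library. On the log2 scale the rise was 1.69, with a standard error (SE) of 0.26 and a 95% interval from 1.10 to 2.28 (edgeR adjusted p 0.0155). The call ended without saline replicate 1, where the rise was 1.83 and edgeR's adjusted p 0.0712, and remained in each of the other 5 fits with 1 library left out.

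Pik3r5 and Pik3r6 encode the adaptors that couple p110 gamma to G-beta-gamma subunits and Ras, and lie side by side on the plus strand of chromosome 11, 5169 bases apart with no annotated gene between them (Pik3r5 at 68432121 to 68497849 and Pik3r6 at 68503019 to 68552698, GRCm38). Pik3r5 measured 5.29, 3.31 and 3.47 CPM in collagenase replicates 1, 2 and 3, against 1.17, 1.45 and 1.26 CPM in saline replicates 1, 2 and 3. The groups did not overlap, and collagenase replicate 1 was again highest. The rise was 1.64 on the log2 scale (SE 0.26, edgeR adjusted p 0.0193). The call remained without saline replicate 2 (edgeR adjusted p 0.0371) or 3 (0.0261) and ended without saline replicate 1 (0.117) or collagenase replicate 1 (0.0640), 2 (0.0533) or 3 (0.0559).

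Pik3r6 measured 2.33, 1.99 and 2.203 CPM in collagenase replicates 1, 2 and 3, against 1.73, 2.30 and 1.35 CPM in saline replicates 1, 2 and 3. The groups overlapped, since saline replicate 2 was above collagenase replicates 2 and 3. The difference was 0.28 on the log2 scale, and its 95% interval from -0.33 to 0.89 (edgeR adjusted p 0.771) spans no difference as well as a 1.85-fold rise. Per length, in the deposited FPKM (fragments scaled for gene length and library depth), Pik3r5 made up 62.8%, 55.1% and 54.0% of the summed Pik3r5 and Pik3r6 in collagenase replicates 1, 2 and 3, against 33.1%, 32.0% and 41.3% in saline replicates 1, 2 and 3. Pik3r6 was thus the more abundant of the pair in every saline library and Pik3r5 in every collagenase library. The ratio of Pik3cg to Pik3r5 FPKM averaged 1.37 ± 0.154 after collagenase and 1.37 ± 0.187 after saline (SD, n = 3 each), and that of Pik3cg to Pik3r6 1.86 ± 0.422 after collagenase and 0.756 ± 0.141 after saline. These ratios were chosen after their values were seen and were not tested.

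**Figure D2:**
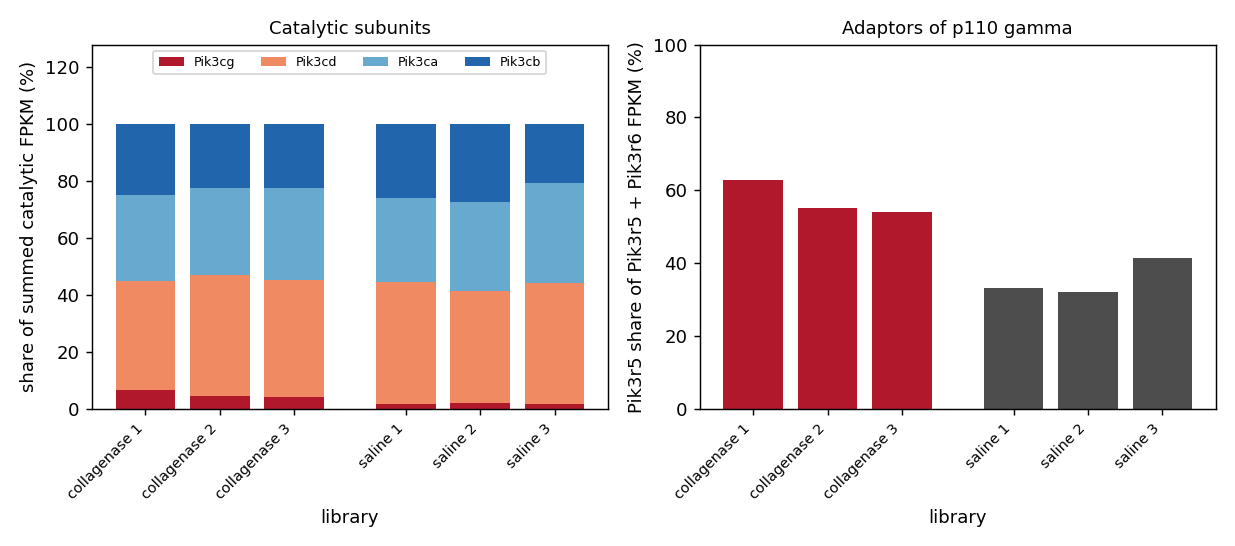
The left panel stacks the FPKM shares of the 4 catalytic subunits in each library, and the right panel gives the Pik3r5 share of summed Pik3r5 and Pik3r6 FPKM, with collagenase libraries left of saline libraries and both axes in percent from 0. The Pik3cg segment is 4.13% to 6.63% after collagenase and 1.47% to 1.85% after saline, and the Pik3r5 bars are at 54.0% to 62.8% after collagenase and at 32.0% to 41.3% after saline.

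Inpp5d (ENSMUSG00000026288, chromosome 1, 87620312 to 87720507, plus strand, GRCm38) measured 26.0, 21.4 and 16.2 CPM in collagenase replicates 1, 2 and 3, against 8.58, 5.99 and 9.97 CPM in saline replicates 1, 2 and 3. The groups did not overlap, with the lowest collagenase value in replicate 3 and the highest saline value in replicate 3. The rise was 1.38 on the log2 scale (SE 0.23, 95% interval from 0.85 to 1.91, edgeR adjusted p 0.0231). The call ended without saline replicate 1 (edgeR adjusted p 0.117), collagenase replicate 1 (0.0814) or collagenase replicate 2 (0.0872), while the log2 difference ranged from 1.19 to 1.54 over the 6 fits that left 1 library out.

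Pik3ap1 (chromosome 19, 41272377 to 41385102, minus strand) measured 8.95, 6.21 and 3.71 CPM in collagenase replicates 1, 2 and 3, against 3.54, 1.75 and 3.49 CPM in saline replicates 1, 2 and 3. The groups did not overlap, but collagenase replicate 3 was only just above saline replicate 1. The log2 difference was 1.10 (SE 0.38, 95% interval from 0.24 to 1.96), which did not pass after adjustment (edgeR p 0.0182, adjusted p 0.257). It had the widest relative spread of the 9 genes in both groups, with a coefficient of variation of 41.7% after collagenase and 34.9% after saline. With Pik3cg, Pik3r5 and Inpp5d it was 1 of 4 genes of the 9 whose groups did not overlap, all higher after collagenase; 10.1% of all tested features were higher and 7.50% lower without overlap, 17.6% in either direction.

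Pik3cd (ENSMUSG00000039936, chromosome 4, 149649168 to 149702571, minus strand) measured 45.7, 52.7 and 46.3 CPM in collagenase replicates 1, 2 and 3, against 55.6, 43.5 and 50.7 CPM in saline replicates 1, 2 and 3. The groups overlapped, with both the highest and the lowest value in saline libraries. The log2 difference was -0.05, with a 95% interval from -0.33 to 0.23 (edgeR adjusted p 0.931), so a rise of the size seen for Pik3cg lies outside the interval. Pik3cd stood above Pik3cg in both groups: per length it measured 9.74 ± 0.602 FPKM after collagenase and 9.48 ± 1.17 FPKM after saline, while Pik3cg measured 1.23 ± 0.385 FPKM after collagenase and 0.368 ± 0.0534 FPKM after saline (SD, n = 3 each). In which cells Pik3cd was expressed was not tested.

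The ubiquitous subunits had narrow intervals. Pik3ca, the main isoform below insulin and growth factor receptors, measured 66.6, 69.1 and 67.3 CPM in collagenase replicates 1, 2 and 3, against 71.5, 63.2 and 75.996 CPM in saline replicates 1, 2 and 3, with a log2 fold change of -0.05 (95% interval -0.28 to 0.18). Pik3cb, which can answer both tyrosine kinases and G proteins, measured 38.7, 36.7 and 34.0 CPM after collagenase, against 44.5, 40.6 and 33.0 CPM after saline, with a log2 fold change of -0.11 (95% interval -0.41 to 0.19). The groups overlapped for both genes. Pik3r1, the regulator that stabilises and restrains the p110 alpha, beta and delta subunits, measured 126.6, 115.8 and 101.5 CPM after collagenase, against 105.6, 102.3 and 112.4 CPM after saline, with a log2 fold change of 0.10 (95% interval -0.15 to 0.35). The edgeR adjusted p was 0.904 for Pik3ca, 0.823 for Pik3cb and 0.7995 for Pik3r1. Under some alternatives the signs of Pik3cd, Pik3ca and Pik3cb turned, at sizes of at most 0.044 on the log2 scale.

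**Figure D3:**
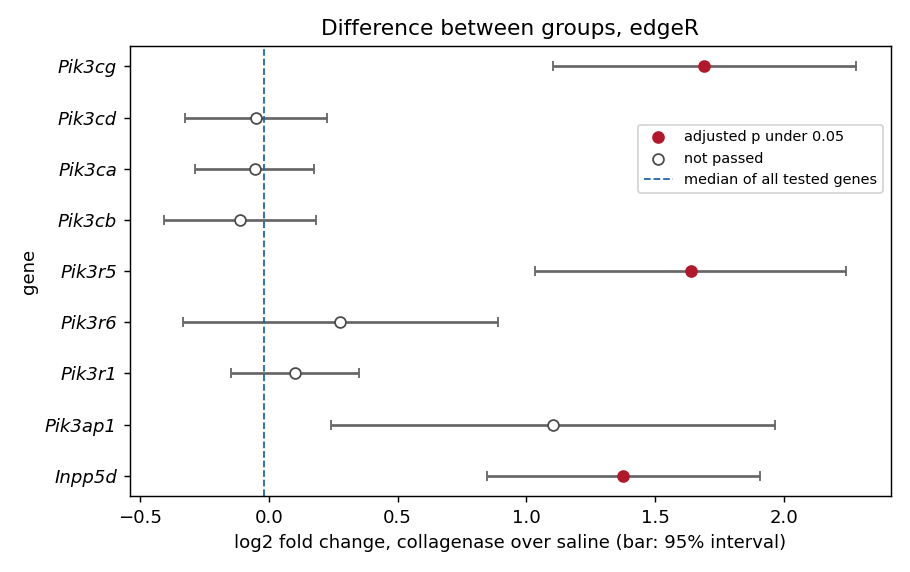
Points are log2 fold changes of collagenase over saline from edgeR, bars are 95% intervals and the dashed line is the median of all tested features at -0.02. The filled points Pik3cg, Pik3r5 and Inpp5d passed the adjusted threshold, and the intervals of Pik3cd, Pik3ca, Pik3cb and Pik3r1 lie around 0 within 0.41 on either side.

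Per length the order of mean levels after saline was Pik3r1 (14.2 FPKM), Pik3cd (9.48), Pik3ca (7.20), Pik3cb (5.63), Inpp5d (1.61), Pik3ap1 (1.01), Pik3r6 (0.507), Pik3cg (0.368) and Pik3r5 (0.270 FPKM). The saline ranges of the first 5 did not overlap each other, while from Inpp5d down each gene's range overlapped that of the next. After collagenase Pik3cg (1.23 FPKM) and Pik3r5 (0.904 FPKM) stood above Pik3r6 (0.655 FPKM), and Inpp5d at 4.52 ± 1.23 FPKM reached into the range of Pik3cb at 5.58 ± 0.593 FPKM. From Pik3cb down the ranges of neighbours overlapped after collagenase. The length implied by the ratio of count to FPKM varied over libraries from 5058 to 6256 bases for Pik3cg and from 4528 to 5222 bases for Inpp5d. The FPKM of both genes thus carries a spread that the counts do not.

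The 4 catalytic subunits summed to 24.0 ± 1.41 FPKM after collagenase and 22.7 ± 2.30 FPKM after saline. Pik3cg took 6.63%, 4.51% and 4.13% of this sum in collagenase replicates 1, 2 and 3, against 1.55%, 1.85% and 1.47% in saline replicates 1, 2 and 3. Pik3cd took 40.7% ± 2.22 after collagenase and 41.8% ± 1.85 after saline, so the share of both leukocyte isoforms together was 45.8% ± 1.16 after collagenase and 43.4% ± 1.65 after saline (SD, n = 3 each). The difference of 2.36 percentage points became 1.41 without saline replicate 2. Pik3r1 stood at 0.712 ± 0.0809 times the summed Pik3cd, Pik3ca and Pik3cb FPKM after collagenase and at 0.638 ± 0.0450 times after saline, with overlapping groups.

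The difference between a leukocyte and a ubiquitous isoform was tested on the log2 FPKM ratio in each library, over 4 pairs. The ratio of Pik3cg to Pik3ca averaged -2.64 ± 0.40 after collagenase and -4.30 ± 0.25 after saline, and that of Pik3cg to Pik3cb -2.22 ± 0.28 after collagenase and -3.92 ± 0.12 after saline (SD, n = 3 each). The differences were 1.66 and 1.70 on the log2 scale, with no overlap between groups; the two-sided exact permutation p was 0.10 for each, which is the smallest that this test allows with 3 against 3 libraries, and 0.20 adjusted over the 4 pairs. With a pseudocount of 1 FPKM, which weighs down low genes such as Pik3cg, the differences were 0.65 and 0.69. The ratios of Pik3cd to Pik3ca and to Pik3cb differed by -0.00063 and 0.041, with exact permutation p-values of 1.0 and 0.90, both 1.0 adjusted. Since the exact test cannot fall below 0.10 here, its p-values say nothing for or against a difference, and the sizes stand as descriptions.

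**Figure D4:**
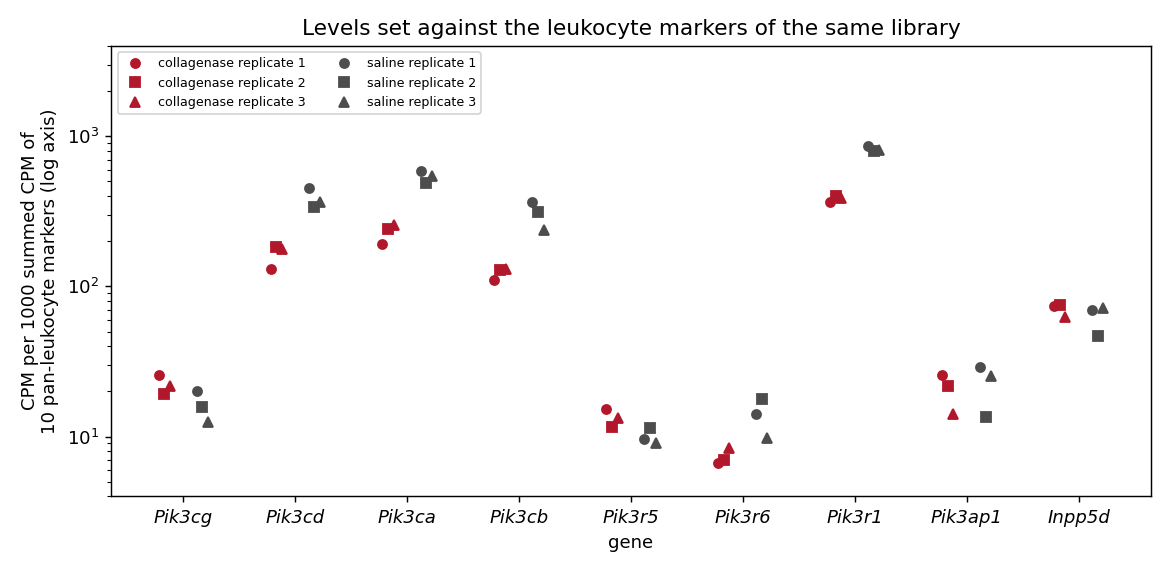
Points give each gene's CPM per 1000 summed CPM of 10 pan-leukocyte markers in the same library, on a log axis, with collagenase libraries in red left of saline libraries in grey. The groups overlap for Pik3cg, Pik3r5 is higher after collagenase, and the values of Pik3cd, Pik3ca, Pik3cb, Pik3r6 and Pik3r1 are lower after collagenase without overlap. The marker sum itself was 260.9 to 349.2 CPM after collagenase and 122.4 to 138.9 CPM after saline. A gene with similar CPM in both groups must therefore come out lower here. The CPM of Pik3cd, Pik3ca, Pik3cb, Pik3r6 and Pik3r1 overlapped between groups, so these lower values are no fall in level.

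Set against the leukocyte markers of the same library, the genes that rose differed less between groups. Pik3cg had 25.5, 19.2 and 21.8 CPM per 1000 summed CPM of the 10 pan-leukocyte markers in collagenase replicates 1, 2 and 3, against 20.1, 15.8 and 12.5 in saline replicates 1, 2 and 3, and these groups overlapped. Inpp5d had 70.5 ± 7.11 after collagenase and 62.8 ± 14.1 after saline, and Pik3ap1 20.5 ± 5.80 after collagenase and 22.5 ± 7.99 after saline, both with overlap (SD, n = 3 each). Pik3r5 had 13.3 ± 1.82 after collagenase and 9.99 ± 1.17 after saline, and did not overlap by a narrow margin. This rested on Coro1a, 1 of the 2 pan-leukocyte markers that did not rise: without it Pik3r5 had 17.4, 13.2 and 15.7 in collagenase replicates 1, 2 and 3, against 16.1, 18.5 and 11.6 in saline replicates 1, 2 and 3, and Pik3cg 25.6 ± 3.62 after collagenase and 25.2 ± 8.95 after saline, both with overlap. Leaving out each of the 10 markers in turn, the groups overlapped in 1 of 10 cases for Pik3r5, in 7 for Pik3cg and in all 10 for Inpp5d and Pik3ap1. Per 1000 summed CPM of the 10 microglial markers Pik3cg had 11.3 ± 1.73 after collagenase and 6.39 ± 1.30 after saline, Pik3r5 6.76 ± 1.01 after collagenase and 3.98 ± 0.479 after saline, and Inpp5d 35.7 ± 3.05 after collagenase and 25.04 ± 5.64 after saline, each with no overlap. Collagenase replicate 1, which was highest for Pik3cg, Pik3r5, Pik3ap1 and Inpp5d, also had the highest sums of pan-leukocyte, microglial and monocyte markers. This was not particular to those lists. Among the collagenase libraries it was also highest for neutrophil, T and NK cell, B cell, astrocyte, endothelial, and mural cell and fibroblast markers. It was not highest for the neuronal and oligodendrocyte markers. These ratios are descriptions with no test, and the part of the marker-bearing cells in the levels was not tested.

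Ranked by distance to Pik3cg over the 6 libraries (log2 CPM centred on each gene's mean, 12832 annotated genes), the nearest were Tnfrsf1b (a TNF receptor), Il2rg (the common cytokine receptor gamma chain), Vav1 (an exchange factor of immune receptors), H2-D1 (a class I antigen-presenting chain) and Arhgap45 (a GTPase-activating protein). Their distances were 0.247, 0.283, 0.289, 0.310 and 0.336, with Pearson's r of 0.99 for each. Reads of H2-D1 may be shared with other class I genes, so its level is uncertain. Among the 9 genes Pik3r5 was closest to Pik3cg (distance 0.484, with 14 genes nearer), then Inpp5d (0.853, with 99 nearer), whereas Pik3r6 was at 1.77 with 984 nearer. These distances include the difference between the 2 groups.

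Of 113 tested genes on 8 lists covering the rest of the pathway, 17 rose, 0 fell and 96 did not pass, with a median log2 fold change of 0.02 against -0.02 over all tested features. Over all 17240 tested features 2.12% were called higher and 0.290% lower, so a count of 0 lower among 113 is near that share. Before adjustment 4 of the 113 were lower with an edgeR p below 0.05, and DESeq2 called 19 higher and 0 lower. Leaving out saline replicate 1 lowered the count of 17 to 4, and leaving out collagenase replicate 1, 2 or 3 lowered it to 10, 7 or 11. The lists of PI3K subunits and phosphatases held none of the 17. They held 24 tested genes, so few that a count of 0 is near the share over all features. Of 3 other class I regulators (Pik3r2, Pik3r3 and the inhibitor Pik3ip1), 5 class II and III PI3K genes and 16 other phosphoinositide phosphatases, 0 passed edgeR's adjusted threshold, 1 had an unadjusted p below 0.05 and DESeq2 called 0, with list medians of 0.07, -0.08 and -0.06. Inppl1, the broadly expressed relative of Inpp5d known as SHIP2, measured 35.8 ± 3.91 CPM after collagenase and 31.8 ± 2.75 CPM after saline (edgeR adjusted p 0.661). Synj1, a phosphatase of synaptic vesicle recycling, had the smallest p of its list at 302.9 ± 14.4 CPM after collagenase and 376.8 ± 27.9 CPM after saline (edgeR adjusted p 0.228).

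Upstream of p110 gamma, 5 of 12 tested chemoattractant receptors rose, with a list median of 1.39. C3ar1, the receptor for complement C3a, measured 14.5 ± 5.02 CPM after collagenase and 2.19 ± 0.379 CPM after saline, and Ptafr, the receptor for platelet-activating factor, 5.71 ± 2.13 CPM after collagenase and 0.818 ± 0.0740 CPM after saline. Cx3cr1, the fractalkine receptor of microglia, rose to 68.9 ± 12.8 CPM after collagenase, against 33.5 ± 2.10 CPM after saline, and Ccr2 and Cxcr4 had log2 fold changes of 3.67 (SE 0.57) and 1.59 (SE 0.30). Ccr2 had 5, 10 and 7 counts in saline replicates 1, 2 and 3, and passed the filter on low counts only through the collagenase libraries. Its call is part of the 5 receptors counted here and of the 17 pathway genes. Of 16 G protein subunits 1 rose, so few genes that this count is near the 2.12% of all tested features called higher. It was Gngt2, at 2.74 ± 0.525 CPM after collagenase, against 0.761 ± 0.180 CPM after saline, and the list median was -0.12. The abundant Gnb1 measured 562.8 ± 14.1 CPM after collagenase and 650.5 ± 64.4 CPM after saline (edgeR adjusted p 0.519). Leaving out 1 library at a time ended the calls of Cx3cr1 and Ccr2 in 2 of 6 fits each, that of Cxcr4 in 5 and that of Gngt2 in 4, and ended those of C3ar1 and Ptafr in 0.

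Of 18 tested adaptors of PI3K and of Inpp5d 4 rose. Fcgr2b, the inhibitory IgG receptor whose tail recruits SHIP1, rose by 2.92 on the log2 scale (SE 0.23), and Tyrobp, an adaptor of microglial receptors, by 2.13 (SE 0.18), and neither call ended when any 1 library was left out. Blnk and Lat2, adaptors of immune receptors, had log2 fold changes of 1.47 and 1.81, and their calls ended in 2 and 4 of those fits. Of 23 PIP3-binding effectors 6 rose: Myo1f, a myosin of leukocytes, with a log2 fold change of 2.14, the kinase Btk with 1.93, Vav1 with 1.81, Cyth4, an exchange factor of ARF GTPases, with 1.40, Plcg2, a phospholipase of immune receptors, with 0.90 and Vav2, a broadly expressed relative of Vav1, with 0.83. The calls of Vav2 and Plcg2 ended in 5 of the 6 fits, that of Btk in 3, that of Cyth4 in 2 and those of Vav1 and Myo1f in 1. Of 20 AKT and mTOR genes 1 rose, a count near the 2.12% of all tested features called higher. It was Eif4ebp1, a repressor of translation that mTOR inhibits, at 3.10 ± 0.347 CPM after collagenase, against 1.37 ± 0.102 CPM after saline. Its call ended in 5 of the 6 fits. The list medians were 0.23 for adaptors, 0.17 for effectors and -0.03 for AKT and mTOR genes. Of the 17 genes that rose 3 are also cell type markers, so their calls are the same values: Tyrobp on the pan-leukocyte list, Cx3cr1 on the microglial list and Ccr2 on the monocyte list.

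**Figure D5:**
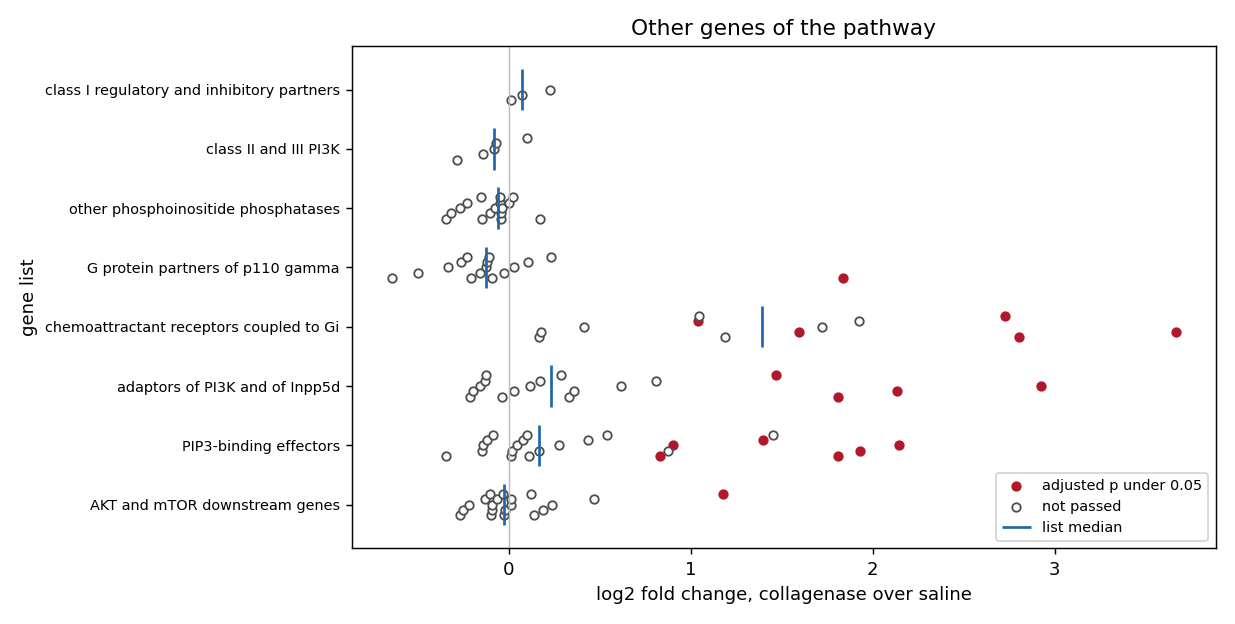
Each point is a tested gene of 1 of the 8 lists, placed by its log2 fold change of collagenase over saline; filled points passed the adjusted threshold and vertical bars are list medians. The 17 filled points are all right of 0, and 15 of them are on the lists of chemoattractant receptors, adaptors and PIP3-binding effectors.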

How the data were processed

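Poly(A) RNA was sequenced from 6 libraries, 3 per group, grouped by sample title. Per the submitters' processing notes, FastQC, HISAT2 2.2.1, StringTie, DESeq2 and the build GRCm38 were used, without roles or order; for annotation release, strand setting and multi-mapped reads nothing is stated there. Each feature's raw count and FPKM are the authors' own, per the file headers: the deposited counts are whole numbers, and the deposited FPKM values are scaled for length and depth. No exon base of the 9 genes lies inside another gene annotated in GENCODE M21, so an unknown strand setting does not mix them with an annotated neighbour.

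Lines of spilled annotation text (10 to 30 per file) were skipped, and symbols were matched by Ensembl identifier. Counts were fitted over all features with edgeR 4.0.16 (R 4.3.3): filterByExpr, TMM factors of 0.898 to 1.063, robust quasi-likelihood F-test, two-sided, Benjamini-Hochberg adjustment over 17240 features, threshold 0.05. SE and 95% intervals come from the quasi-likelihood F statistic and its total degrees of freedom. FPKM served for levels between genes. Steps were tested on simulated data. Alternatives included DESeq2 1.42.0 and limma 3.58.1 on log2(FPKM + 0.1).

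The members, lists and tests were chosen with earlier results of these data known. Named genes are the 9 members, every pathway list gene that passed, others among the 3 smallest p of such a list, and the 5 genes nearest to Pik3cg; Inppl1, Gnb1 and each cell type marker named for its own level were named outside this rule after their values were seen. Pairing by replicate number is covered in the closing section.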

Additional observations from a re-analysis of the deposited data

How the results depend on the processing

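Pik3cg, Pik3r5 and Inpp5d were called under each alternative that kept all 6 libraries, except Pik3r5 under the replicate block (edgeR adjusted p 0.0540). The number of the 9 genes called ranged from 0 to 3 over fits that left out a library, the number of the pathway genes called from 4 to 18 and the number of all features called from 85 to 917, with 85 and 0 of the 9 genes reached without saline replicate 1. The Pik3cg log2 fold change ranged from 1.43 to 1.83 over these fits (edgeR adjusted p 0.0219 to 0.0712). DESeq2 called 788 features, the same 3 of the 9 genes (adjusted p 8.0e-07 for Pik3cg), and gave Pik3ap1 an adjusted p of 0.0788. With the replicate block 302 features, 2 of the 9 genes and 11 pathway genes were called; same-numbered libraries deviated with correlations of 0.0439, 0.107 and 0.203, so the samples share a number and no pairing is established. Log2 fold changes near 0 changed sign: Pik3cd and Pik3ca to 0.031 and 0.030 under library totals and both to 0.044 in limma, Pik3cb to 0.0028 in limma, and, over fits without a library, Pik3cd between -0.14 (saline replicate 2 left out) and 0.033 (saline replicate 1 left out) and Pik3ca between -0.13 (saline replicate 2 left out) and 0.0044 (saline replicate 3 left out). The log2 ratios of Pik3cg to Pik3ca and Pik3cb differed by 0.65 and 0.69 with a pseudocount of 1, and the share of both leukocyte isoforms by 1.41 to 2.84 percentage points without 1 library. Marker sums without 1 marker were added after the data were seen. The ratio of Pik3cd to Pik3ca differed by 0.00027 with a pseudocount of 1 and by 0.0050 in CPM, and by -0.047 to 0.064 without 1 library, values added after the data were seen; that of Pik3cd to Pik3cb ranged from -0.078 to 0.18. The cause was not tested. Counts per library of 43 to 252 for Pik3r5 and 46 to 111 for Pik3r6 limit what can be said of small differences in these genes.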
